A study of Oryctolagus cuniculus with 6 samples.

Results

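The cathepsins described here are 5 lysosomal proteases, cathepsin B (CTSB), D (CTSD), K (CTSK), L (CTSL) and S (CTSS), read on microarrays of rabbit basilar artery smooth muscle cells. Their probes were chosen by name: every probe whose gene name was one of the 5, or whose description named one of these proteases, was taken. This gave 19 of the 43603 probes on the array. CTSB and CTSD had 1 probe each, CTSK 5, CTSL 3 and CTSS 5. A further 4 probes belonged to 2 loci that the array also describes as cathepsin L1, LOC100344030 with 3 and LOC100347623 with 1, and these were kept apart from CTSL.

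The rabbits were female New Zealand White animals, and the labels name no genetic change. All were killed with sodium pentobarbital. In 3 rabbits both common carotid arteries were tied, a state that the labels call hemodynamic insult and that is meant to increase basilar artery flow. In 3 sham control rabbits the same arteries were exposed and left untied. On day 5 the whole basilar artery was perfused with elastase and collagenase, cells were released by trituration, and total RNA was labelled with Cy3 and read on 3 arrays per group. Every group therefore shares the enzymatic digestion, and the cells were released mechanically with no sort stated.

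Cathepsins are made as inactive precursors, carried to the lysosome, and activated there at acid pH, where they break down proteins delivered by endocytosis and autophagy. Cathepsins B, K, L and S are cysteine proteases, whereas cathepsin D is an aspartic protease. When they are released from cells, cathepsins K, L and S can also cut elastin and collagen, the fibres that give an arterial wall its recoil and strength. Cystatins bind cysteine cathepsins tightly and block them, and cystatin C, encoded by CST3, is the main secreted one.

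The levels of 3 smooth muscle markers were read first. ACTA2, the smooth muscle actin, read between 6.17 and 8.86 over the 6 arrays in normalised log2 signal, that is, log2 signal minus the array's 75th percentile. MYH11, the smooth muscle myosin heavy chain, read between 5.16 and 7.64, and TAGLN, an actin-binding protein, between 6.70 and 8.85. The globin HBB2, an erythroid marker, read between 4.32 and 8.74, so bright marker signal alone does not settle which cells were present. Between 58.7% and 63.7% of probes were well above background on an array and no spot was saturated. Sham 2 and sham 3 were the closest pair, with an SD of their difference over probes of 0.38 against 0.61 to 1.51 for the other 14 pairs. Sham 1 lay farther from sham 2 and sham 3, at 1.28 each, than from ligated 1, 2 and 3, at 1.05, 0.92 and 1.19. The sham samples were hybridised on slide 1 and the ligated ones on slide 2, so the effects of slide and of ligation cannot be told apart anywhere below. After scaling, the 10 spike-in controls had a median ligated minus sham difference of -0.81, and 3 were lower in all ligated samples. The number of arrays limits the precision, and in RNA from a mixed cell suspension a change in the share of a cell type and a change in RNA per cell cannot be told apart.

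CTSD and CTSL were the cathepsins that rose after ligation, and CTSB, CTSK and CTSS did not pass the test. A locus described as cathepsin L1, LOC100344030, also passed on 1 of its probes. Changes were tested with limma over all 27410 probes that were well above background on at least 3 arrays, and a probe passed at an adjusted p under 0.05. Of the 19 cathepsin probes 17 were tested, 5 rose, 0 fell and 12 did not pass, and 6 had an unadjusted p under 0.05. Among all tested probes 1562, or 5.7%, were higher at an adjusted p under 0.05. In either direction, 7497 of the 27410 had an unadjusted p under 0.05. The median change of the 17 probes was 0.47 in log2, against 0.01 over all tested probes. All 3 ligated values lay above all 3 sham values for 7 of the 17 probes, against 17.6% of all tested probes. Of the 17, 1 probe of LOC100344030 was above background on ligated arrays alone, so it entered the test through the group where it was high. Probes of a gene overlap in sequence and do not count as independent readings. Of the 5 genes, 2 rose, beside 6.12% of the 7840 genes with a symbol.

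**Figure D1:**
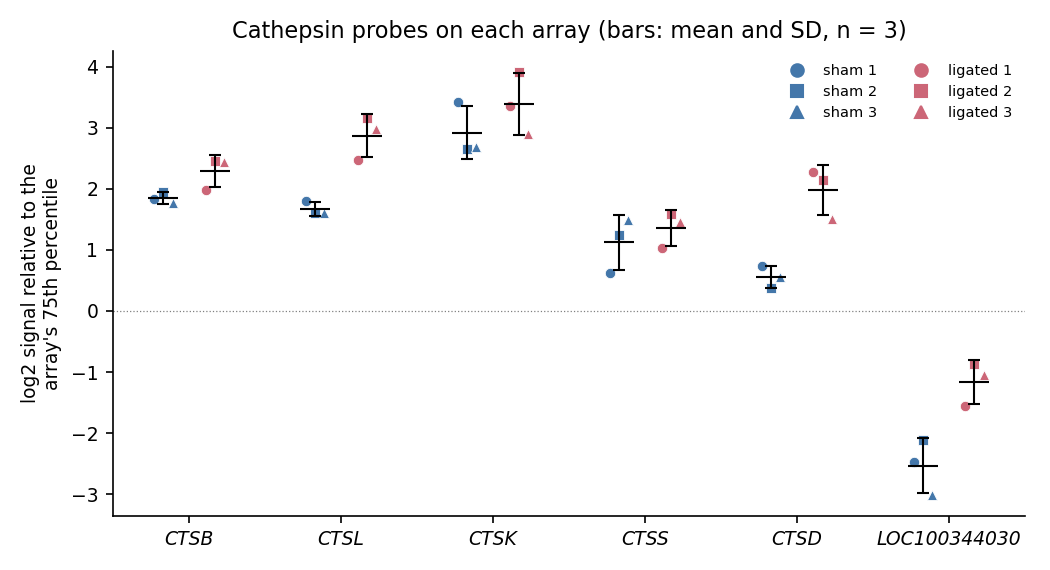
Normalised log2 signal (vertical axis, relative to the array's 75th percentile) of the brightest probe of CTSB, CTSL, CTSK, CTSS, CTSD and LOC100344030 on each of the 3 sham and 3 ligated arrays, with the mean and SD of each group. The ligated points lie above all sham points for CTSB, CTSL, CTSD and LOC100344030, and the groups overlap for CTSK and CTSS.

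Cathepsin D, the aspartic protease, had the largest change among the 5 genes on all arrays, although CTSL exceeded it without ligated 1 (1.39 against 1.27) and with normexp background correction (0.84 against 0.83). Its only probe starts at base 669 of the target transcript and has no genome position in the files. It is shown because the CTSD result rests on this sequence alone.
CTSD: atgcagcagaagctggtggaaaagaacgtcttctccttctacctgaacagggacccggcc
The probe read 0.73, 0.37 and 0.56 in sham 1, 2 and 3 and 2.27, 2.15 and 1.50 in ligated 1, 2 and 3, in normalised log2 signal. Every ligated value lay above every sham value, and the lowest of the ligated values was on ligated 3. The difference was 1.42 ± 0.26 (standard error of the fit, n = 3 per group), or 2.68-fold higher, with a limma adjusted p of 0.0251. CTSD was well above background on all 6 arrays. Leaving out sham 2, sham 3, ligated 1 or ligated 2 ended the call, with adjusted p of 0.107, 0.103, 0.0721 and 0.0882. The change itself stayed between 1.27 and 1.66 when any array was left out.

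Cathepsin L, a cysteine protease of the lysosome that can also degrade elastin, rose on all 3 of its probes. The array describes the probes by the older symbol CTSL1, and they lie on chromosome 1 of oryCun2, with coordinates that run from high to low. The brightest covers chr1:75698768-75700461, a span of 1694 bases for a 60-base probe, so it crosses an intron and reads spliced RNA. The second probe spans the same intron and the other covers chr1:75698728-75698787. The 3 probes start 20 bases apart in the transcript and share 20 bases, which are in capitals.
CTSL, A_04_P003988: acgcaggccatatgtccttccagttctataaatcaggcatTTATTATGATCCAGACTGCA
CTSL, A_04_P003987: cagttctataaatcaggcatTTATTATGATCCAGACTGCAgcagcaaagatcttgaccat
CTSL, A_04_P003986: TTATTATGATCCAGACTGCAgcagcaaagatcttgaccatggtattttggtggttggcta
The brightest probe read 1.80, 1.61 and 1.60 in sham 1, 2 and 3 and 2.47, 3.16 and 2.97 in ligated 1, 2 and 3. The sham values were close together and every ligated value was higher. The difference was 1.20 ± 0.23 (standard error, n = 3 per group), a 2.29-fold rise with a limma adjusted p of 0.0299. Over the 3 probes the change ran from 1.10 to 1.21 and the adjusted p from 0.0299 to 0.0434. The call ended without sham 2, sham 3, ligated 2 or ligated 3, with adjusted p of 0.122, 0.127, 0.091 and 0.0594, while the change stayed between 1.05 and 1.39.

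The 2 other loci described as cathepsin L1 lie on the same chromosome of oryCun2, away from CTSL. LOC100344030 was read by probes at chr1:73542210-73542269 and chr1:73542230-73542289, and another at chr1:73542181-73542240 was well above background on no array. LOC100347623 had 1 probe, spanning chr1:73512227-73513003, which was also well above background on no array. Both silent probes can be laid against a CTSL probe from the same stretch of the transcript, and the pairs are shown because they tell how far the array can separate these loci. Bases that differ within a pair are in capitals, as is an end base that has no partner.
CTSL, A_04_P003986: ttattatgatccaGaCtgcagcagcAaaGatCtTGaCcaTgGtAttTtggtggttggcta
LOC100344030, A_04_P037804: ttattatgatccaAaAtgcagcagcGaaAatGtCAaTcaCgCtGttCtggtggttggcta
CTSL, A_04_P003987: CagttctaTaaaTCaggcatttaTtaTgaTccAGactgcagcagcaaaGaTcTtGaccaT
LOC100347623, A_04_P037187: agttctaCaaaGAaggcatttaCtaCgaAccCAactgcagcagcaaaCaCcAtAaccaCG
In the first pair 48 of 60 bases were identical, or 80.0%, with no gap allowed. In the second 46 of 59 aligned bases were identical, or 78.0%. Neither of these partly matching probes was well above background on any array, while the CTSL probe beside it was so on all 6.

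The brightest LOC100344030 probe read -2.48, -2.11 and -3.01 in sham 1, 2 and 3 and -1.56, -0.87 and -1.05 in ligated 1, 2 and 3. All ligated values were higher, and the probe was well above background on all 6 arrays. The difference was 1.37 ± 0.31 (standard error, n = 3 per group), or 2.58-fold, with a limma adjusted p of 0.044. Leaving out any 1 array ended this call, with adjusted p between 0.0615 and 0.144. The second probe was above background on all 3 ligated arrays and on none of the sham arrays. Its means were -4.90 in sham and -3.65 in ligated, with a limma adjusted p of 0.0876. With each dim array counted at its lowest signal called above background, it was 1.52-fold higher after ligation. Under normexp without high-background spots its change was 0.32 in log2. Laid by their start in the transcript, the brightest LOC100344030 probe overlapped CTSL probe A_04_P003986 over 31 bases, of which 23 were identical, and the second over 11 bases, all identical, so these probes too share sequence with CTSL. The part of CTSL RNA in the LOC100344030 signal was not tested.

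Cathepsin B, an abundant lysosomal cysteine protease, had 1 probe at chr2:38151902-38151961 of oryCun2, starting at base 678 of its transcript.
CTSB: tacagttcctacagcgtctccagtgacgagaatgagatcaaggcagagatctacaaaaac
It read 1.83, 1.95 and 1.77 in sham 1, 2 and 3 and 1.98, 2.45 and 2.44 in ligated 1, 2 and 3. The groups did not overlap, but ligated 1 lay only just above the highest sham array. The difference was 0.44 ± 0.21 (standard error, n = 3 per group), or 1.36-fold, and did not pass, with a limma adjusted p of 0.224. The adjusted p stayed above the threshold without any 1 array, between 0.14 and 0.474.

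Cathepsin K, a collagen-degrading cysteine protease best known from osteoclasts, was read by 5 probes tiled within a few bases of each other. The brightest spans chr13:41358100-41359632 of oryCun2, 1533 bases for a 60-base probe, and so crosses an intron. It is printed with the 55 bases shared by all 5 probes in capitals, which shows that the 5 readings are of 1 site.
CTSK, A_04_P001591: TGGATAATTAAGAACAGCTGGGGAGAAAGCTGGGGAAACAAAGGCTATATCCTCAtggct
It read 3.41, 2.65 and 2.68 in sham 1, 2 and 3 and 3.35, 3.91 and 2.89 in ligated 1, 2 and 3. Sham 1 was higher than ligated 1 and ligated 3, so the groups overlapped. The difference was 0.47 ± 0.34 (standard error, n = 3 per group) with a limma adjusted p of 0.411, and over the 5 probes it ran from 0.45 to 0.49. Without sham 1 or ligated 3 it moved as far as 0.72, and without ligated 2 as low as 0.20, and no adjusted p among these went under 0.218.

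Cathepsin S, a cysteine protease strongly expressed in macrophages and other antigen-presenting cells, was also read at 1 site. Its brightest probe covers chr13:41384028-41384087 of oryCun2, and the 53 bases in capitals are common to all 5 CTSS probes.
CTSS, A_04_P032791: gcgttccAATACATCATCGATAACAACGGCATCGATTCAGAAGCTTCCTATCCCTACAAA
It read 0.62, 1.24 and 1.50 in sham 1, 2 and 3 and 1.03, 1.59 and 1.45 in ligated 1, 2 and 3. Sham 1 was the lowest of the 6 and the rest of the sham values lay among the ligated ones. The difference was 0.24 ± 0.29 (standard error, n = 3 per group) with a limma adjusted p of 0.625, and without sham 1 its sign turned, to -0.01. The 5 probes gave changes of 0.14 to 0.25.

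Macrophage, smooth muscle and fibroblast markers are given beside these values, since cells of each kind hold lysosomes, and their part in the cathepsin changes was not tested. Of 16 macrophage markers 10 had a tested probe, and 0 rose or fell in the limma fit, with 2 at an unadjusted p under 0.05. Their median change was 0.22, and their summed level, relative to each array's 75th percentile on the linear scale, ran from 10.2 to 24.4 on the sham arrays and from 10.8 to 38.3 on the ligated arrays. Sham 1 had the lowest sum among all arrays and ligated 3 the highest. The brightest were C1QA, a complement subunit, with a change of -0.16, and CD14, a lipopolysaccharide co-receptor, with 0.01. Of the 10 tested, however, 8 had a positive change. The 2 with an unadjusted p under 0.05 were ITGAM at 1.05 (limma adjusted p 0.0549) and MSR1 at 0.91 (limma adjusted p 0.164). CD68, a membrane protein of macrophage lysosomes, changed by 0.88 ± 0.46 (standard error, limma adjusted p 0.27). Of 10 smooth muscle markers 9 were tested and 2 fell, SMTN by 1.77 and DES by 1.11 (1 of 2 DES probes), MYLK and TAGLN, the brightest, changed by -1.38 and -1.01 without passing, and the summed level ran from 1199 to 2039 on the sham arrays and from 449 to 1225 on the ligated arrays. Of 10 fibroblast and meningeal markers 7 were tested and 3 rose, COL1A1 by 3.02, LUM by 2.38 and FAP by 2.11, and the brightest, PTGDS and DCN, changed by -0.85 and 0.35 without passing. Of the 6 DCN probes, 4 dimmer ones rose, by 0.80 to 1.04. Erythroid markers, led by the globins HBB2 and HBA, summed to between 188 and 388 on the sham arrays, and to 28.4, 31.3 and 666 on ligated 1, 2 and 3.

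**Figure D2:**
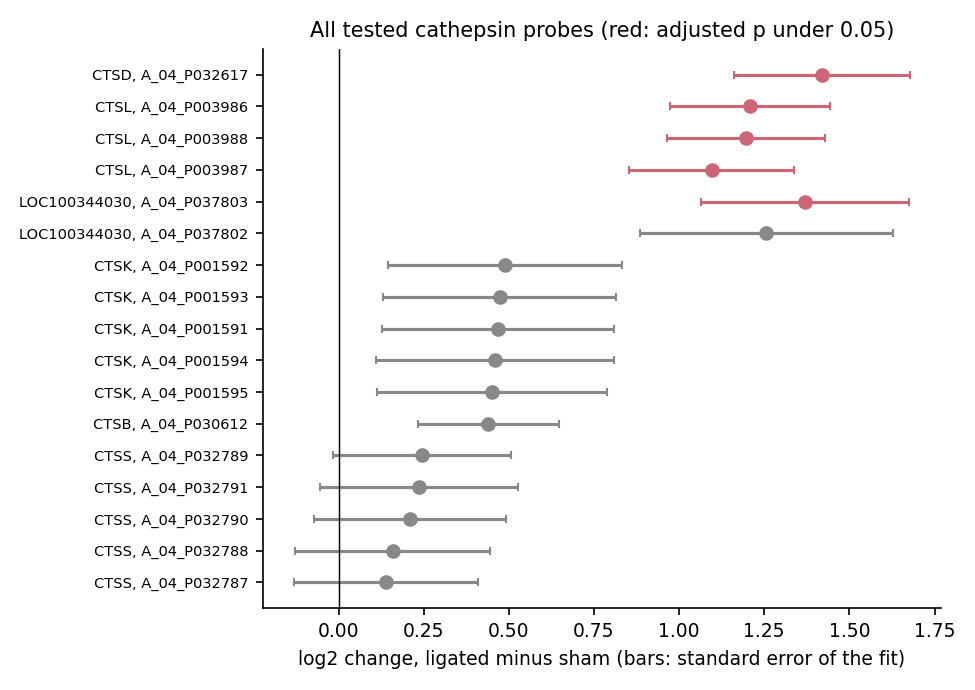
Log2 change (horizontal axis, ligated minus sham) of each of the 17 tested cathepsin probes, with the standard error of the fit as bars and probes that passed in red. The 3 CTSL probes and the CTSD probe lie between 1.10 and 1.42, and the CTSK and CTSS probes form narrow clusters between 0.45 and 0.49 and between 0.14 and 0.25.

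The 5 genes differed in how their values ran over the 6 arrays, which is given as a description, since the arrays share a group difference, a slide and the scaling. CTSL ran most like CTSB, with a Pearson r of 0.929 over 6 arrays, and like CTSD at 0.855, and LOC100344030 ran like CTSL at 0.94. CTSK and CTSS had an r of -0.125. The cathepsins were also set against 7511 other genes with a symbol, leaving out symbols made of LOC and a number. Among these, the most similar in pattern to CTSL were ANXA8, an annexin, SCGB1D1, a secretoglobin, and HBEGF, an EGF-like growth factor, at 0.9942 to 0.9984. For CTSD they were ADAM9, a membrane metalloprotease, ALDH1A1, a retinaldehyde dehydrogenase, and NEK6, a mitotic kinase, at 0.9955 to 0.9971. For CTSB they were CMC2, SIGLEC1 and NMNAT2, of which SIGLEC1 is a macrophage lectin. For CTSK they were NIP7, RTCA and SPATS2L, and for CTSS DERL1, RBM34 and YIPF6. Nothing about shared function is read from these values.

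Other lysosomal genes were grouped in 7 lists of 89 genes, of which 65 had a probe under their symbol and 63 were tested. Of the 63, 6 rose, 2 fell and 55 did not pass, beside 6.12% of genes with a symbol that were higher and 2.7% that were lower. Of the 6, CSTA and CTNS were above background on no sham array and entered the test through the group where they were high. With the filter on all 6 arrays, which drops both, 6 of 59 rose and 2 fell. These were not the same 6: SCARB2, at a limma adjusted p of 0.0539 before, entered at 0.0452. The share of all genes called under that filter was not counted. The median change of the 63 was 0.37, against 0.01 over all genes with a symbol. LGMN, LAMP1, LAMP2 and TFEB were not analysed here, having no probe under those symbols.

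Among the other cathepsins 1 of 6 tested genes rose. CTSF, a lysosomal cysteine protease, read 0.09, -0.12 and -0.23 in sham 1, 2 and 3 and 0.98, 1.04 and 0.73 in ligated 1, 2 and 3. The groups were well apart, and the difference was 1.00 ± 0.19 (standard error, limma adjusted p 0.029). The second CTSF probe gave 0.83 and did not pass (adjusted p 0.145), and the call of the brighter probe ended without sham 2, sham 3, ligated 1 or ligated 2, with adjusted p of 0.126, 0.135, 0.0774 and 0.0934. CTSE, an aspartic protease related to cathepsin D, changed by 0.73, CTSC, which activates granule proteases, by 0.41, CTSH by 0.10, CTSZ by 0.06 and CTSO by -0.27, none of them past the threshold.

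The cystatins moved in different directions. CST3, which encodes cystatin C, read 8.28, 8.94 and 8.71 in sham 1, 2 and 3 and 7.60, 7.75 and 7.09 in ligated 1, 2 and 3 with its brightest probe. All ligated values were lower, by 1.17 ± 0.27 in log2 (standard error, 2.24-fold, limma adjusted p 0.0489). The second CST3 probe, a dim one, went the other way, with a change of 2.09 and an adjusted p of 0.07, so the fall rests on 1 of 2 probes that disagree. It also did not pass without sham 2, sham 3, ligated 1, ligated 2 or ligated 3, with adjusted p between 0.0796 and 0.17. CSTB, a cystatin of the cytosol, changed by 0.04 (adjusted p 0.929), and its 5 probes ran from 0.04 to 0.09. CSTA, a cystatin of epithelia and leukocytes, was above background on no sham array and on all 3 ligated arrays. With each sham array counted at its lowest signal called above background, CSTA was 1.92-fold higher. Under normexp without high-background spots its change was 0.54 in log2. The CSTA means were -5.95 in sham and -3.31 in ligated (limma adjusted p 0.00655), on the only 1 of its 5 probes that was tested. That probe entered the test through the group where it was high, so its p is no support of its own.

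**Figure D3:**
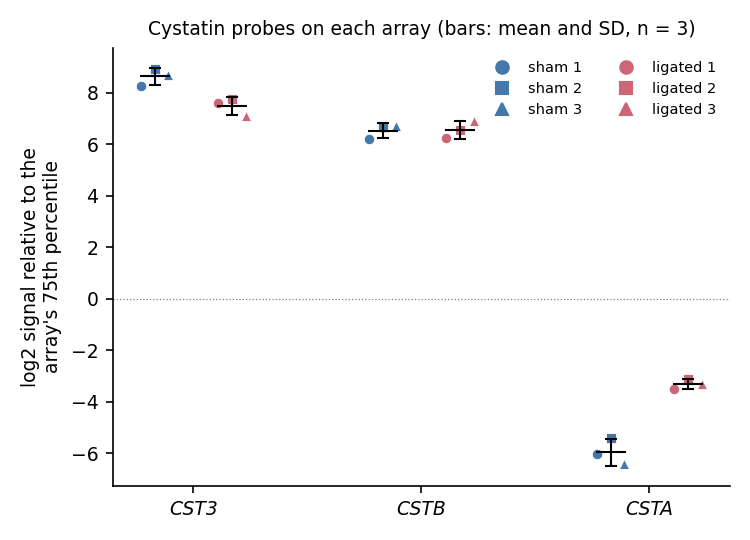
Normalised log2 signal (vertical axis, relative to the array's 75th percentile) of the brightest tested probe of CST3, CSTB and CSTA on each array, with group means and SD. The ligated points lie below the sham points for CST3, overlap them for CSTB, and lie above them for CSTA, whose sham points were not above background.

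A cysteine cathepsin's level can be set against its inhibitor on the same array. The difference between each cathepsin and the bright CST3 probe was therefore also compared between groups. CTSD encodes an aspartic protease, so for CTSD the value is not one of a protease against its inhibitor. The difference rose by 2.59 for CTSD, 2.36 for CTSL, 1.63 for CTSK, 1.61 for CTSB and 1.40 for CTSS in log2 (n = 3 per group). The groups did not overlap for any of the 5. The bright CST3 probe was itself lower on every ligated array, and CTSK and CTSS overlapped on their own. The separation therefore includes that of CST3, and the share of all genes that separate in this way was not counted. Each had a two-sided exact permutation p of 0.1, the smallest that 3 against 3 arrays allow, and 0.1 after adjustment over the 5, so none could pass. These 5 differences share the CST3 values, and with the second CST3 probe, whose change of 2.09 exceeds that of every cathepsin, all 5 would be negative.

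Of 26 tested hydrolases and activators, the enzymes that digest the lysosome's cargo beside the cathepsins, 3 rose and 0 fell, with a median change of 0.47. TPP1, a lysosomal tripeptidase, read -1.47, -1.39 and -1.65 in sham 1, 2 and 3 and 2.17, 0.57 and 0.30 in ligated 1, 2 and 3. Its ligated values were all higher but spread widely, with ligated 1 far above the others, and the difference was 2.52 ± 0.49 (standard error, limma adjusted p 0.0292). PLBD2, a phospholipase-like lysosomal protein, rose by 1.76 ± 0.33 (adjusted p 0.026) on both of its probes. LIPA, the lysosomal acid lipase that splits cholesteryl esters, rose by 0.84 ± 0.20 (adjusted p 0.049) on all 3 of its probes. Without sham 2 none of the 3 passed, with adjusted p of 0.0971 for TPP1, 0.102 for PLBD2 and 0.173 for LIPA, and without sham 3 none did either, at 0.113, 0.0967 and 0.161. TPP1 also did not pass without sham 1 (0.0537) or ligated 2 (0.0736), PLBD2 without ligated 1 (0.0849) or ligated 2 (0.0834), and LIPA without sham 1 (0.0852), ligated 1 (0.113) or ligated 2 (0.126).

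The remaining lists hold the membrane, the proton pump, the sorting machinery and the transcription factors of the lysosome. Of 9 tested membrane proteins 1 rose, CTNS, the cystine exporter. It was above background on no sham and on all 3 ligated arrays. With each sham array counted at its lowest signal called above background, CTNS was 2.38-fold higher. Under normexp without high-background spots its change was 0.42 in log2. The means were -4.34 in sham and -3.00 in ligated, with a limma adjusted p of 0.0419. CTNS too entered the test through the ligated arrays alone. That call ended whichever array was left out, with adjusted p from 0.0534 to 0.156. CD63, a tetraspanin of late endosomes and lysosomes, changed by 0.37 ± 0.21 (adjusted p 0.291). Of 13 subunits of the vacuolar proton pump, which acidifies the lysosome, 0 passed in limma, 3 had an unadjusted p under 0.05, and the median was 0.35. That median ranged from 0.13 to 0.27 when 1 array was left out and was 0.055 with normexp background correction. The smallest p values were those of ATP6AP2 at 0.70 (adjusted p 0.0755), ATP6V1B2 at 0.77 (adjusted p 0.103) and, in the other direction, ATP6V1E1 at -0.61 (adjusted p 0.11). None of 3 sorting genes passed in limma, and 1 had an unadjusted p under 0.05. SCARB2, the receptor that carries glucocerebrosidase to lysosomes, changed by 0.75 (adjusted p 0.0539), and GNPTAB, which makes the mannose-6-phosphate tag, by -0.21. Of 3 regulators 1 fell: MITF, a factor of the family that drives lysosomal genes, was lower by 1.20 ± 0.25 (adjusted p 0.0385). The second MITF probe gave -0.89 (adjusted p 0.126), and the call ended whichever array was left out, with adjusted p from 0.062 to 0.115.

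**Figure D4:**
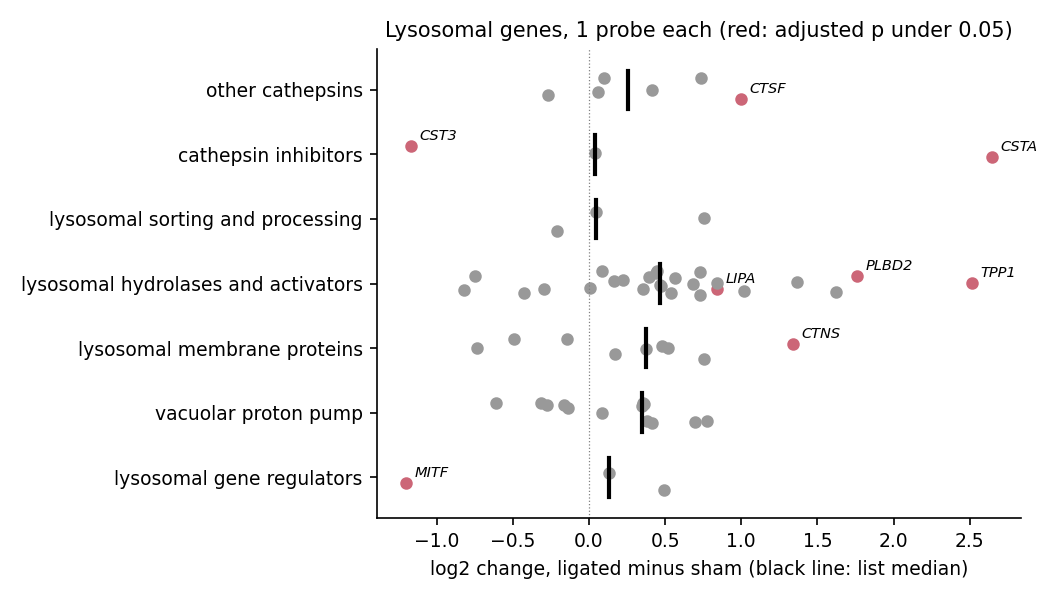
Log2 change (horizontal axis, ligated minus sham) of the 63 tested lysosomal genes in 7 lists, 1 probe per gene, with list medians as black lines and genes that passed in red. The 8 genes that passed, 6 higher and 2 lower, are named, and the median of the hydrolases lies at 0.47. For MITF, CTNS, CST3 and CSTA the limits given in the text apply.

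How firmly CTSD, CTSL and LOC100344030 passed depended on the processing. All 3 stayed higher in ligated cells under every one of 19 alternatives, CTSD by 0.83 to 1.66, CTSL by 0.84 to 1.39 and LOC100344030 by 0.59 to 1.58. The adjusted p, however, went above the threshold under 8 alternatives for CTSD, 10 for CTSL and 14 for LOC100344030. With normexp background correction no probe of the array passed, although 615 had an unadjusted p under 0.05, and the adjusted p of all 3 genes was 0.789. The same correction without high-background spots let 2381 probes pass, 5 of them cathepsin probes. The limma adjusted p was then 0.0228 for CTSD, 0.0218 for CTSL and 0.0348 for LOC100344030. With sham 2 and sham 3 averaged into 1 sample, because of how close they were, the adjusted p was 0.102 for CTSD and 0.121 for CTSL.

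**Figure D5:**
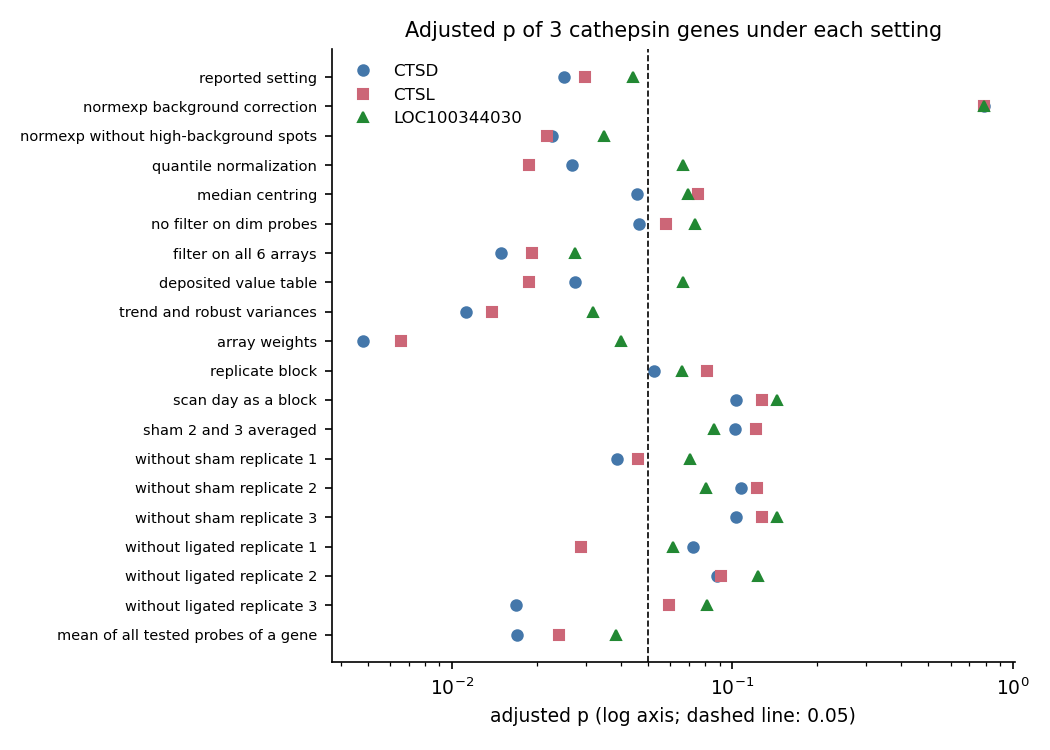
Adjusted p (horizontal log axis, dashed line at 0.05) of CTSD, CTSL and LOC100344030 under the reported setting and 19 alternatives, 1 row each. Under normexp background correction all 3 lie at 0.789 and their markers cover each other, and most settings that leave out an array or average arrays lie to the right of the line.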

How the data were processed

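Total RNA of basilar artery smooth muscle cells was read on 6 rabbit arrays, and the submitters' processing notes list Agilent Feature Extraction 10.7. The processed signal, per the file headers, is an intensity from which background was subtracted and a spatial trend removed, without any scaling to the other arrays. The deposited raw signal and local background are intensity values too, and each spot also has deposited marks of another kind, 0 or 1, for above background, saturated and outlier. The value table that the authors deposited holds log2 values, with the step that made it not given in the sources used here.

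From the processed signal, outlier spots were left out, repeated spots averaged in log2, and each array's 75th percentile subtracted. Probes well above background on at least 3 of 6 arrays were tested with limma 3.58.1 in R 4.3.3 (two-sided, Benjamini-Hochberg adjustment over all tested probes, threshold 0.05). The brightest tested probe stood for a gene. A bound sets each dim array at the lowest signal called well above background there, or at the probe's own signal if higher. It compares group means in the reported processing without an error, so it is no minimum under other settings. Names came from the files and a table of rabbit genes (assembly mOryCun1.1), of which no coordinate was used: 23771 probes had 1 symbol, 321 several and 19511 none. Probe positions were taken from the oryCun2 coordinates in the files, which do not say coding or untranslated. Probe sequences are the array's own, compared without gaps. The labels give 3 rabbits per group, and nothing says whether an array is 1 animal or a pool.

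The cathepsins, the gene lists and the tests were chosen with earlier results of these data known. Genes named were the cathepsins, up to 4 passing genes of each list with the smallest p (up to 2 where none passed), a fixed set (CST3, CSTB, LGMN, LAMP1, LAMP2, CD63, TFEB, CD68), the 3 genes most like each cathepsin, and the 2 brightest members of each marker list whose levels are given. Markers named for having passed (SMTN, DES, COL1A1, LUM, FAP), ITGAM, MSR1, ACTA2, MYH11, ATP6V1E1, CTSC, CTSE, CTSH, CTSO and CTSZ fall outside that rule and were picked after their values were seen. Lists of markers for endothelium, lymphocytes, neutrophils and neurons and glia held 0 passing genes in limma by their brightest tested probe. In each, 0 to 2 genes had an unadjusted p under 0.05. Only 1 of the 10 neuron and glia genes was tested, and 1 of its 3 tested probes, a dimmer one, fell. The script was tested on simulated data. The alternatives were normexp (offset 50) with and without high-background spots, quantile normalization, median centring, no filter, a filter on all 6 arrays, array weights, the deposited value table, robust variances with a trend, scan day or replicate number as a block (replicate block), sham 2 and 3 averaged, the mean of a gene's probes, and leaving out each array.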

Additional observations from a re-analysis of the deposited data

How the results depend on the processing

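The sign of the change in CTSB, CTSK, CTSD, CTSL and LOC100344030 was the same under all 19 alternatives, while the number of probes that passed was not. Of all probes 2292 passed, and 0 did so with normexp background correction (615 at an unadjusted p under 0.05 in limma), 1520 with no filter on dim probes, 6114 with array weights (3348 of them higher), 550 with scan day as a block (480 higher), 595 with sham 2 and 3 averaged (515 higher), and 550 to 2282 (480 to 1555 higher) when 1 array was left out. Calls that were higher made up 68.2% of all calls, 52.2% with median centring, which moved the median of all tested probes by -0.19, and 56.2% with normexp without high-background spots. Of the 5 cathepsin probes that passed, the limma count was 0 with normexp (1 at an unadjusted p under 0.05), scan day as a block or sham 2 and 3 averaged (6 each unadjusted), 1 with median centring or no filter, and 0 to 3 without 1 array. CTSD was no longer past the threshold with normexp (0.83), scan day as a block (1.42) and sham 2 and 3 averaged (1.38), and ran from 1.27 to 1.66 without 1 array. CTSL was no longer past it with normexp (0.84), median centring (1.00), no filter (1.20), scan day as a block (1.16) and sham 2 and 3 averaged (1.16), and ran from 1.05 to 1.39 without 1 array. With normexp without high-background spots 2381 probes passed, 5 of them cathepsin probes. Scan day held sham 3 alone, so that block equals leaving it out. The other causes were not tested.

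With the replicate block 1291 probes passed in limma, 0 of them cathepsin probes (6 at an unadjusted p under 0.05), CTSD at 1.42 had an adjusted p of 0.0526 and CTSL at 1.20 one of 0.0808, and 2 lysosomal genes were higher and 0 lower. Between samples of the same number, the correlations of deviations from the group mean were 0.432, -0.567 and 0.58. Between samples of unlike number they ran from -0.678 to 0.655. With so few arrays per group these deviations depend on each other, so the correlations cannot show whether the numbers pair the samples. Whether the replicate block is the better design was not tested.

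CTSS ran from -0.014 to 0.42 without 1 array, and its probes A_04_P032787 (-0.067 to 0.32), A_04_P032788 (-0.089 to 0.35) and A_04_P032790 (-0.028 to 0.38) turned likewise, and under median centring the first and second read -0.059 and -0.039. CSTB turned to -0.021 with normexp, -0.15 with median centring and -0.11 with array weights, and ran from -0.13 to 0.21 without 1 array. GNPTAB turned to 0.39 and 0.0028 under the normexp settings and to 0.036 as the mean of its probes, and CST3 to 0.46 as the mean of its probes.

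Of the lysosomal genes, 6 higher and 2 lower, the counts were 0 and 0 with normexp, 3 higher with median centring, 2 and 0 with no filter, 13 and 4 with array weights, 1 and 0 with scan day as a block or sham 2 and 3 averaged, 1 lower with quantile normalization or the deposited value table, and 0 lower with the mean of all probes. Without 1 array they were 1 to 5 and 0 to 1. Their median moved to 0.25 with normexp and 0.18 with median centring, and the difference of CTSD to CST3 to 2.10 with normexp. The number of alternatives that ended a call, with the direction kept, was 11 of 19 for CTSF, 12 for CST3, 15 for LIPA, 8 for PLBD2, 7 for TPP1 and 12 for MITF, and 1 of 18 for CSTA and 16 of 18 for CTNS. Sizes fell under the normexp settings: with normexp, CTSF to 0.46, PLBD2 to 0.80, TPP1 to 1.24, MITF to -0.37 and LOC100344030 to 0.59, and without high-background spots CSTA to 0.54, CTNS to 0.42 and LIPA to 0.48.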

Other observations

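Cathepsin H, a lysosomal aminopeptidase, varied over the arrays more than it differed between the groups. CTSH read 0.80, 2.83 and 2.86 in sham 1, 2 and 3 and 1.17, 2.31 and 3.31 in ligated 1, 2 and 3, in normalised log2 signal. The summed level of the macrophage markers on the same arrays was 10.2, 24.4 and 21.2 in sham and 10.8, 16.0 and 38.3 in ligated, so sham 1 and ligated 1 were the lowest in both and ligated 3 the highest. CTSH did not pass between the groups in limma, with an adjusted p of 0.943. Other marker lists shared parts of this order. The lymphocyte sum was 0.81, 3.56 and 3.75 in sham and 0.74, 0.93 and 3.65 in ligated. The erythroid sum was 188, 388 and 371 in sham and 28.4, 31.3 and 666 in ligated. The neutrophil sum ran otherwise, at 3.93, 1.35 and 1.18 in sham and 2.94, 2.63 and 6.44 in ligated. The order is therefore not particular to macrophage markers, and the part of any cell type in these values was not tested.

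Of the 26 tested lysosomal hydrolases and activators, 22 had a positive change and 11 an unadjusted p under 0.05 in limma, while 3 passed after adjustment. Of the 13 proton pump subunits 8 had a positive change, and of the 9 membrane proteins 6. Beside these counts, 7497 of all 27410 tested probes had an unadjusted p under 0.05 in limma. The median change over all genes with a symbol was 0.01, and their share of positive changes was not counted.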
